A study of Mus musculus with 8 samples.

Results

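Zfp36, Zfp36l1, Zfp36l2, Btg1, Btg2, Tob1 and Tob2 encode proteins that bring messenger RNAs to the deadenylation machinery. They were taken as the rows of the count table whose Ensembl mouse identifiers carry these symbols, and all 7 of 7 were found among 55487 genes. The hypothalamus of 8 C57BL/6J mice was profiled by RNA sequencing. In the hypoxia group 4 mice breathed 7% oxygen for 2 hours, and in the normoxia group 4 mice were kept at 21% oxygen for the same time. No transgene, deletion or drug is listed for either group, and the labels state neither age nor sex. The 4 libraries of a group are called biological replicates in the design text, so p-values rest on the variation among these 8 libraries. All 7 genes passed the low-count filter that left 17047 genes for testing.

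The ZFP36 proteins carry tandem CCCH zinc fingers that bind AU-rich elements, most tightly UAUUUAU, in the 3′ untranslated regions (UTRs) of short-lived mRNAs. They recruit the CCR4-NOT complex, which shortens the poly(A) tail and so starts decay of the message. The BTG and TOB proteins have no RNA-binding domain of that kind and instead bind the CCR4-NOT nucleases CNOT7 and CNOT8 through a shared N-terminal domain. In addition, TOB proteins bind the cytoplasmic poly(A)-binding protein. Zfp36 and Btg2 are known as early response genes, with low resting mRNA that rises soon after a stimulus.

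AU-rich heptamers are shown for the 2 members that passed the test between the groups, because tristetraprolin, the product of Zfp36, is known to bind its own message as well as others. Each line gives the heptamer TATTTAT, in capitals, with its neighbouring bases in the sense strand of the longest annotated 3′ UTR (GENCODE M21, written as DNA).
Zfp36 site 1: ccttTATTTATgacg
Zfp36 site 2: acttTATTTATtgta
Zfp36 site 3: atagTATTTATatat
Zfp36l1 site 1: aacgTATTTATtgcc
Zfp36l1 site 2: ttcaTATTTATcggg
Zfp36l1 site 3: ggatTATTTATttta
The Zfp36 sites start at bases 575, 590 and 615 of a 3′ UTR of 774 bases, and those of Zfp36l1 at 1150, 1191 and 1405 of 1835. Zfp36l2 also had 3 heptamers, Btg2 and Tob2 had 1 each, and Btg1 and Tob1 had 0. Of the 14507 tested genes with an annotated 3′ UTR, 4.28% had 3 or more and 69.2% had 0.

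The RefSeq promoters of the same pair of genes (GRCm38.p6, 250 bases before to 50 after the start, in the direction of the gene) are shown because the mRNAs differed between the groups in opposite directions. Capitals mark the only match to the motifs searched, a CArG box, the core of the serum response element.
Zfp36, chr7:28379179-28379478, minus strand: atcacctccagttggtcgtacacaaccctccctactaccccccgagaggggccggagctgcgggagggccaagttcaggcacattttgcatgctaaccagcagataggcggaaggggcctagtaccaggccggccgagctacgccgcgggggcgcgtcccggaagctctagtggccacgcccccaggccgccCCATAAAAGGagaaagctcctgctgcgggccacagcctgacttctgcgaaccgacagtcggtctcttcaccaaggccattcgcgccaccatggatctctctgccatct
Zfp36l1, chr12:80112964-80113263, minus strand: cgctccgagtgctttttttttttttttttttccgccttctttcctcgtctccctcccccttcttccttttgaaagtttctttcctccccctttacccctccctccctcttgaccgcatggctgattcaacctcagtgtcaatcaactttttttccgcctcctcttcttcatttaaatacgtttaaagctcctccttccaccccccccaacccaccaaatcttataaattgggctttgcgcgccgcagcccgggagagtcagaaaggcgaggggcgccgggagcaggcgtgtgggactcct
The RefSeq start of Zfp36 lies inside the span that GENCODE gives the gene. Its CArG box begins at -58 relative to the start, and 1.63% of 32851 promoters of the same length hold one. Promoters were matched for 6 of the 7 members, all except Zfp36l2. Motifs were searched on both strands. The cAMP response element TGACGTCA occurred in Btg2, at -166, and in 1.79% of all promoters. The core of the HIF site, ACGTG, occurred in Tob1 at -191 and in Tob2 at -177, and in 19.6% of all promoters. The full palindromic glucocorticoid response element and the NF-kB consensus site occurred in 0 members and in 0.00913% and 0.155% of promoters. No member held more than 1 of these motifs, so none overlapped. These are matches of letters in a short window and were not tied to binding in these data.

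Total counts ran from 16994473 to 21694383 per library. All 16 hypothalamic identity genes checked, among them Hcrt, Pmch, Avp, Oxt and Agrp, were detected in every library, with summed levels of 597 to 1080 CPM (TMM-scaled CPM, the count of a gene relative to the library's effective total). Normoxia replicate 2 stood apart. Its summed cortex and hippocampus markers were at 684 CPM against 175 to 255 CPM in the other 7 libraries, and its immediate early genes were at 837 CPM against 377 to 512 CPM. It also had the lowest hypothalamic identity sum. Normoxia replicate 1 stood apart in other markers, with thalamus genes at 635 CPM against 216 to 339 CPM elsewhere and the highest oligodendrocyte sum (11400 CPM). Its striatum sum was the lowest (450 CPM), but normoxia replicate 3 was close at 483 CPM, against 776 to 1250 CPM elsewhere. Of 8 thalamus genes 0 had a positive log2 fold change (median -0.41), and of 8 striatum genes 8 did (median 0.41), with 0 called in either list by edgeR and 1 and 0 at an unadjusted p under 0.05. Hypoxia replicate 4 had Vegfa, a standard target of the hypoxia-inducible factor, at 134 CPM against 220 to 223 CPM in the other hypoxia libraries. Of all genes tested, 366 (2.15%) were called by edgeR's quasi-likelihood test at a Benjamini-Hochberg adjusted p under 0.05, 156 higher (0.915%) and 210 lower (1.23%) in hypoxia. An unadjusted p under 0.05 was found for 3291 of the 17047 genes tested.

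Of the 7 genes, Zfp36 rose and Zfp36l1 fell after 2 hours of hypoxia, and the other 5 were not called. Zfp36 went to 1.95 times its normoxia level and Zfp36l1 to 0.676 times. The groups did not overlap in 3 members, above normoxia in Zfp36 and below it in Zfp36l1 and Tob1, where 13.4% of all genes tested had no overlap (5.69% above and 7.75% below). The 7 log2 fold changes had a median of -0.11, against -0.01 over all genes tested. In tissue RNA, fewer cells of a type and less RNA per cell cannot be told apart.

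**Figure D1:**
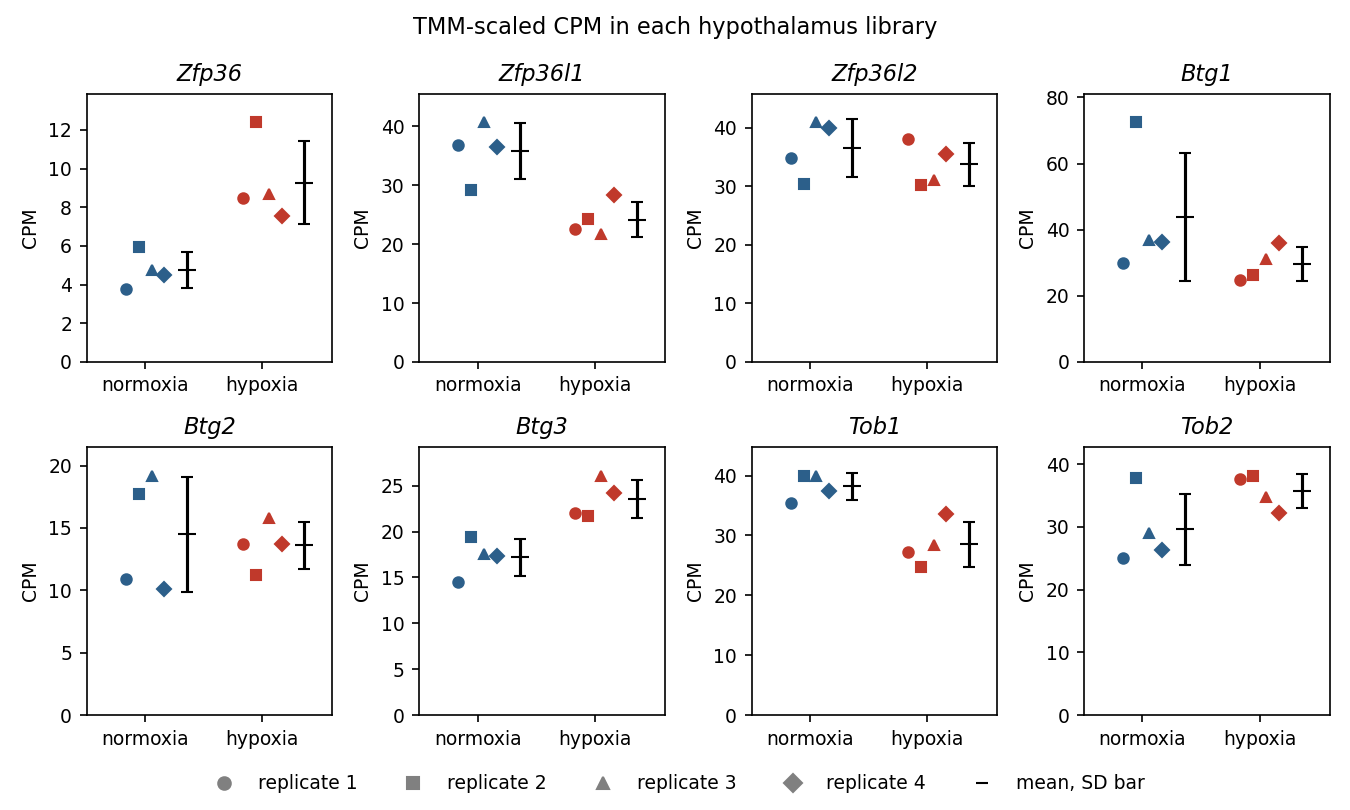
TMM-scaled CPM (vertical axes, from 0) of the 7 genes and of the related Btg3 in each normoxia and hypoxia library, with the symbol giving the replicate number and the black bar the mean and SD of 4 libraries. Zfp36 and Btg3 lie higher and Zfp36l1 and Tob1 lower in all 4 hypoxia libraries than in any normoxia library, and Btg1 in normoxia replicate 2 lies at 72.5 CPM, apart from the rest.

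Zfp36 encodes tristetraprolin, the founding member of the family, known for destabilising cytokine mRNAs. It lies on chromosome 7 (28376784 to 28380253, minus strand, mm10). Its level was 8.46, 12.4, 8.7 and 7.54 CPM in hypoxia replicates 1 to 4, and 3.76, 5.96, 4.77 and 4.5 CPM in normoxia replicates 1 to 4. Every hypoxia library was above every normoxia library, with the smallest gap between hypoxia replicate 4 and normoxia replicate 2. The means were 9.27 ± 2.13 and 4.74 ± 0.912 CPM (SD, n = 4 each), which is 0.97 ± 0.19 on the log2 scale (SE; edgeR's test, adjusted p = 0.0395). Leaving out normoxia replicate 2 (adjusted p = 0.0155) or hypoxia replicate 4 (0.026) kept the call, where 3.91% and 4.01% of all genes were called. Leaving out any of the other 6 libraries ended it (0.0933 to 0.126). In those 6 fits 26 to 50 genes were called in all, against 366 with all 8 libraries. Zfp36 had a log2 fold change of 0.80 to 1.01 there. Normoxia replicate 1, with the high thalamus markers, had the lowest Zfp36 level, and the log2 fold change without it was 0.87. An antisense transcript, Gm44710, overlaps Zfp36 and had at most 0.564 CPM in any library.

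Zfp36l1, on chromosome 12 (80107754 to 80113013, minus strand), encodes a relative with nearly the same zinc fingers, known for roles in vascular development and lymphocyte maturation. Its levels were 22.5, 24.2, 21.7 and 28.3 CPM in hypoxia and 36.8, 29.2, 40.7 and 36.5 CPM in normoxia, in order of replicate number. Here too the groups were separate, and the closest libraries were again hypoxia replicate 4 and normoxia replicate 2. Means of 24.2 ± 2.94 and 35.8 ± 4.81 CPM (SD, n = 4 each) correspond to -0.57 ± 0.12 on the log2 scale (SE; edgeR's test, adjusted p = 0.0441). As for Zfp36, only the fits without normoxia replicate 2 (adjusted p = 0.00836) or hypoxia replicate 4 (0.0209) kept the call among the 8 with 1 library left out. The others gave 0.0992 to 0.163, with 26 to 50 genes called in all and Zfp36l1 at a log2 fold change of -0.56 to -0.49. Upper-quartile scaling gave an adjusted p of 0.0565. Gm26669 is annotated on the opposite strand of Zfp36l1 and was not analysed here.

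Zfp36l2, the third ZFP36 relative, is known for its part in blood stem cells and oocytes. It lies on chromosome 17 (84183931 to 84187947, minus strand). It was at 38.0, 30.2, 31.1 and 35.5 CPM in hypoxia and 34.8, 30.3, 40.9 and 39.9 CPM in normoxia. The groups overlapped over most of their range, and the log2 fold change of -0.11 had a 95% interval of -0.38 to 0.15 (adjusted p = 0.61).

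The ratio of one relative to another within a library does not depend on how the libraries are scaled. The log2 ratio of Zfp36 to Zfp36l1 was -1.91 to -0.97 in hypoxia and -3.28 to -2.29 in normoxia, a difference in means of 1.52. That of Zfp36 to Zfp36l2 differed by 1.07 and that of Zfp36l1 to Zfp36l2 by -0.45. In all 3 ratios the groups did not overlap, which gives the smallest p that 4 against 4 libraries allow (exact permutation test, two-sided p = 0.0286, and 0.0514 adjusted over the 9 ratios computed in both families).

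Per length of exon, Zfp36 made up 11.8%, 17.6%, 13.5% and 10.0% of the summed level of the 3 relatives in hypoxia replicates 1 to 4. In normoxia its share was 4.66%, 8.55%, 5.17% and 5.22%. The share of Zfp36l1 was 36.3% to 43.6% in hypoxia and 48.7% to 52.9% in normoxia. The sum itself, in CPM per kb, overlapped between the groups, at 18.6 to 21.7 in hypoxia and 20.1 to 26.6 in normoxia. The annotated exons of Zfp36 cover its whole gene body, so its shares are too low in both groups if its intron is rarely retained. These shares were not tested beyond the ratios above.

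**Figure D2:**
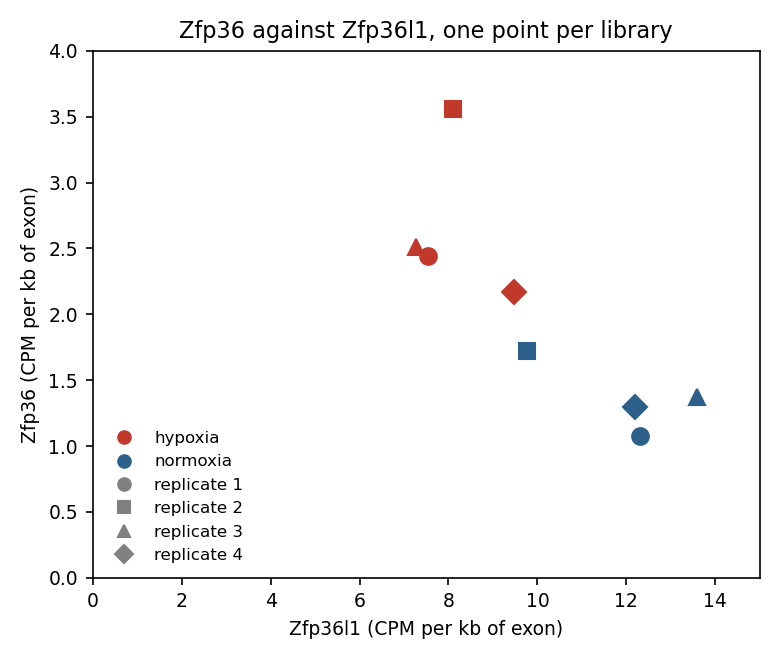
Zfp36 (vertical axis) against Zfp36l1 (horizontal axis), both in CPM per kb of exon, with 1 point per library, coloured by group and shaped by replicate number. The hypoxia libraries lie at 2.17 to 3.56 for Zfp36 and 7.26 to 9.47 for Zfp36l1, the normoxia libraries at 1.08 to 1.72 and 9.76 to 13.6, and normoxia replicate 2 is the normoxia library closest to the hypoxia points.

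Among the BTG and TOB genes, none of the 4 members was called by edgeR over all genes. Tob1, which encodes an antiproliferative protein that links poly(A)-binding protein to CCR4-NOT, came closest. It lies on chromosome 11 (94211454 to 94215495, plus strand) and was at 27.3, 24.7, 28.4 and 33.6 CPM in hypoxia and 35.4, 40.0, 39.9 and 37.4 CPM in normoxia. All hypoxia libraries were below all normoxia libraries, with hypoxia replicate 4 the closest to them. The log2 fold change was -0.42 ± 0.09 (SE; 95% interval -0.65 to -0.19, edgeR adjusted p = 0.0528). With 1 library left out, it was called only without hypoxia replicate 4 (-0.51, adjusted p = 0.011), and the other fits gave 0.0532 to 0.174. It was also called by limma-voom (adjusted p = 0.0463), which called 2.44% of all genes, and by DESeq2 (adjusted p = 0.00368), which called 5.97%. In edgeR it was not called with RLE scaling (adjusted p = 0.0558), upper-quartile scaling (0.063) or a replicate block (0.151).

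Tob2, its close relative on chromosome 15 (81848272 to 81858796, minus strand), was at 37.7, 38.2, 34.7 and 32.3 CPM in hypoxia and 25.1, 37.8, 29.1 and 26.4 CPM in normoxia. Normoxia replicate 2 lay among the hypoxia libraries, and the other 3 normoxia libraries lay below all 4. The log2 fold change was 0.27 (95% interval -0.03 to 0.58, adjusted p = 0.269) with all libraries. Without normoxia replicate 2 it was 0.42 (edgeR adjusted p = 0.0241), where 3.91% of all genes were called. That fit drops the only normoxia library within the hypoxia range, so it widens the difference by construction. The other fits with 1 library left out gave an edgeR adjusted p of 0.248 to 0.477. Without normoxia replicate 1, which had the lowest Tob2 level, the log2 fold change was 0.20 (adjusted p = 0.415). The log2 ratio of Tob1 to Tob2 was -0.63 to 0.06 in hypoxia and 0.08 to 0.5 in normoxia, with no overlap (exact permutation test, two-sided p = 0.0286, adjusted over 9 ratios 0.0514).

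Btg1, an antiproliferative gene known in lymphocytes, lies on chromosome 10 (96617006 to 96622809, plus strand). It was at 24.9, 26.2, 31.1 and 36.1 CPM in hypoxia and 29.8, 72.5, 37.0 and 36.3 CPM in normoxia. The groups overlapped, and normoxia replicate 2 was at more than any other library. The log2 fold change was -0.57 with a 95% interval of -1.2 to 0.06 (edgeR adjusted p = 0.266), and -0.21 (0.357) without normoxia replicate 2. The cortical transporter gene Slc17a7 was at 384 CPM in that library and at 7.92 to 80.3 CPM in the other 7. Whether tissue from a neighbouring region contributed to the Btg1 level there was not tested.

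Btg2, known as a target of p53 and of growth factor signalling, lies on chromosome 1 (134075170 to 134079120, minus strand). It was at 13.7, 11.2, 15.8 and 13.7 CPM in hypoxia and 10.9, 17.7, 19.2 and 10.1 CPM in normoxia. The normoxia libraries lay on both sides of the hypoxia range, and the log2 fold change of -0.08 had a 95% interval of -0.6 to 0.44 (adjusted p = 0.872). The log2 ratio of Btg1 to Tob2 did not overlap between the groups (a difference of -0.78, exact permutation p = 0.0286, adjusted over 9 ratios 0.0514). The other 4 BTG and TOB ratios overlapped, with exact permutation p from 0.143 to 0.943.

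The remaining genes of both families are Btg3, Btg4 and the rodent gene Zfp36l3. Btg4, known from oocytes, had at most 0.15 CPM in any library and Zfp36l3 at most 0.23 CPM, and neither was tested. Btg3, on chromosome 16 (78332637 to 78377192, minus strand), was at 22.0, 21.7, 26.1 and 24.2 CPM in hypoxia and 14.5, 19.4, 17.6 and 17.3 CPM in normoxia. The groups did not overlap, and the log2 fold change was 0.45 ± 0.10 (SE, edgeR adjusted p = 0.0524). Btg3 overlaps Cxadr on the opposite strand, which was at 39.1 to 45.9 CPM with a log2 fold change of 0.01.

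Levels can be ordered between genes on the per-length scale. In normoxia Tob1 was highest at 16.7 ± 0.95 CPM per kb (SD, n = 4), above all libraries of Zfp36l1 at 9.76 to 13.6. Zfp36l2 (10.3 ± 1.38), Btg1 (8.33 ± 3.67), Btg2 (5.27 ± 1.69) and Tob2 (4.44 ± 0.86) followed, and each neighbour in this order from Zfp36l1 to Tob2 overlapped the next. Zfp36 was lowest at 1.37 ± 0.263, below all Tob2 libraries. In hypoxia Zfp36l2 (9.55 ± 1.05) stood above Zfp36l1 (8.09 ± 0.983) with overlapping libraries. Tob1 was still first at 12.5 ± 1.64, with its lowest library level with the highest of Zfp36l2 at 10.8, and Zfp36 still last at 2.67 ± 0.613. Btg1 (5.6 ± 0.967), Tob2 (5.36 ± 0.411) and Btg2 (4.96 ± 0.694) overlapped each other in between, all below the lowest Zfp36l1 library. The annotated exons of Zfp36 cover its whole gene body, so its per-length level is too low if its intron is rarely retained.

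The members did not vary together as 1 set across the 8 libraries. Pearson's r of log2 CPM, which includes the difference between the groups, was -0.874 between Zfp36 and Zfp36l1, 0.823 between Zfp36l1 and Tob1 and 0.847 between Zfp36 and Tob2. Btg2 had r of -0.0507 to 0.497 with the other 6. These values are descriptions over libraries that share their depth between genes. In normoxia replicate 2, Zfp36 and Tob2 were the highest and Zfp36l1 the lowest of the normoxia libraries, while Tob1, at 40.0 CPM, was the highest of all 8 libraries and so lay on the side away from hypoxia. In hypoxia replicate 4, Zfp36 and Tob2 were the lowest and Zfp36l1 and Tob1 the highest of the hypoxia libraries. The summed level of 24 glucocorticoid-responsive genes, which hold no member, also set these 2 libraries apart. It was 1200 CPM in normoxia replicate 2 against 791 to 838 CPM in the other normoxia libraries, and 1330 CPM in hypoxia replicate 4 against 1620 to 1730 CPM in the other hypoxia libraries. Of the 23 tested, 9 were higher and 0 lower in hypoxia, against 0.915% and 1.23% of all genes. The median of the 23 log2 fold changes was 0.69. The number higher was 3 or 4 when any of 6 libraries was left out, 12 without hypoxia replicate 4 and 19 without normoxia replicate 2. Of all genes, 26 to 50 were called in either direction in those 6 fits, and 4.01% and 3.91% in the last 2. Summed pituitary markers were highest in the same 2 libraries, at 80.3 CPM in normoxia replicate 2 and 42.5 CPM in hypoxia replicate 4. Elsewhere they were at 0.193 to 9.73 CPM. Summed targets of the hypoxia-inducible factor were at 1450 CPM in hypoxia replicate 4 against 1780 to 1820 CPM in the other hypoxia libraries. Normoxia replicate 2, at 1230 CPM, lay within the normoxia range of 1140 to 1230 CPM. Of 22 such targets tested, 13 were higher and 0 lower in hypoxia, with a median log2 fold change of 0.45. Dropping hypoxia replicate 4 raised the number higher to 16, and dropping normoxia replicate 2 raised it to 15. It was 5 or 7 when any other library was dropped. The part of these lists in the levels of Zfp36 and Tob2 was not tested.

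The genes with the pattern most like each member were taken as the 3 with the highest r over the 8 libraries among 11743 genes, a choice that makes r high by construction. Hist1h1c, a linker histone gene, was nearest to Zfp36 (r = 0.983), with 33.0 ± 3.19 CPM in hypoxia and 21.3 ± 2.65 in normoxia, followed by Fbxo21 (0.974) and Ncf1 (0.971). Zfp14 was nearest to Zfp36l1 (0.994), at 12.9 ± 1.07 and 17.5 ± 1.71 CPM, followed by Zscan26 (0.986) and the Krüppel-like factor gene Klf6 (0.983). Cbll1 (0.991), Cox17 (0.984) and Cdkn2aip (0.984) were nearest to Tob1. Fosb (0.975), an activity-induced AP-1 gene, Carmil1 (0.969) and Suclg2 (0.962) were nearest to Tob2. Smc3 (0.982) and Sept11 (0.982) were nearest to Btg1. For Zfp36l2 they were Zfp655 (0.963), Phykpl (0.928) and Hebp2 (0.928), and for Btg2 they were Hikeshi (0.941), Adam1a (0.941) and Tubb2b (0.911).

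The CCR4-NOT complex, to which both families bring mRNAs, is built on the scaffold CNOT1 with a nuclease module and several regulatory subunits. Of its 11 genes, 0 were higher and 2 lower in hypoxia, with a median log2 fold change of -0.11. For this and the following lists, the shares over all genes tested were 0.915% higher and 1.23% lower. Cnot9, which encodes a subunit that binds the scaffold and contacts RNA-binding adaptors, was at 19.8, 18.9, 19.5 and 26.3 CPM in hypoxia and 31.0, 36.8, 29.6 and 31.6 CPM in normoxia. No hypoxia library reached the normoxia range, and Cnot9 fell by 0.61 on the log2 scale (SE 0.12, edgeR adjusted p = 0.0371). Cnot3, a subunit of the regulatory module, went down to 41.9 ± 2.64 CPM from 52.2 ± 3.43 (SD, n = 4 each), or by -0.32 ± 0.07 on the log2 scale (adjusted p = 0.0455). Leaving out 1 library at a time kept each call in 2 of 8 cases. Cnot9 overlaps Usp37 and Cnot3 overlaps Leng1 on the opposite strand, and these had log2 fold changes of -0.17 and -0.25 (adjusted p = 0.19 and 0.325).

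The nuclease genes that BTG and TOB proteins bind were close to level. Cnot7 had 89.2 ± 5.93 CPM in hypoxia against 90.9 ± 8.58 in normoxia, and Cnot8 had 40.9 ± 1.59 against 43.5 ± 3.45 (SD, n = 4 each). The scaffold gene Cnot1 was at 140 ± 4.69 and 139 ± 6.79 CPM. None of these 3 was called (adjusted p = 0.881, 0.483 and 0.948).

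**Figure D3:**
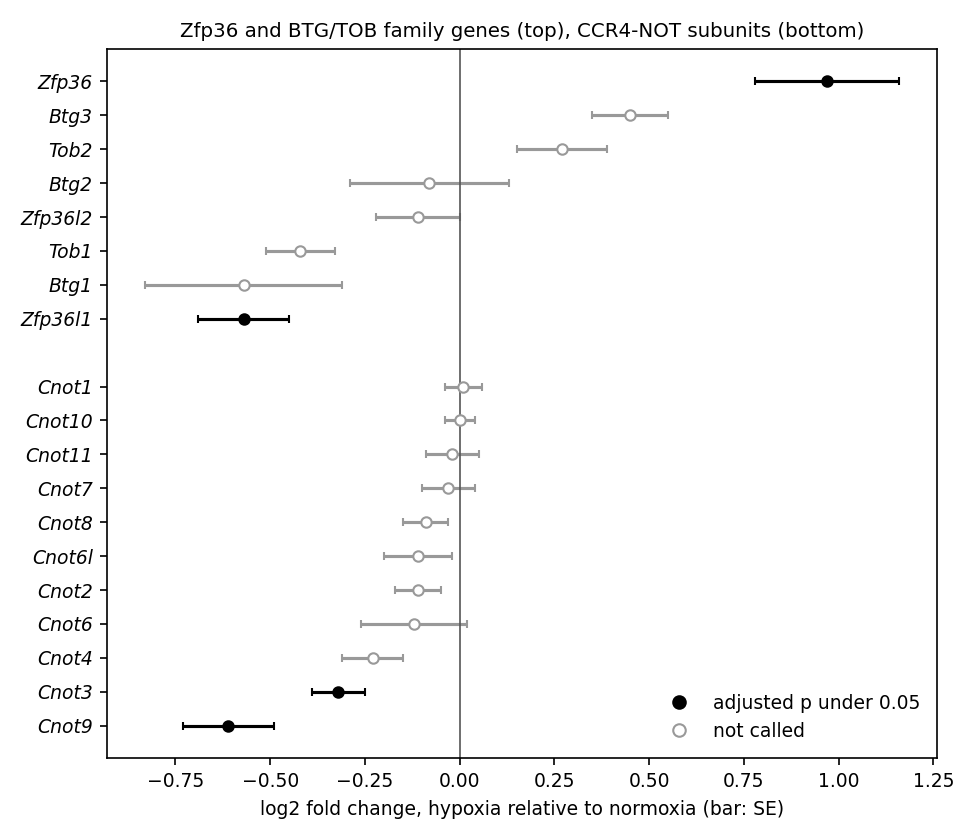
Log2 fold change of hypoxia relative to normoxia (horizontal axis, bar: SE) for the 8 tested family genes (top) and the 11 CCR4-NOT genes (bottom). Filled black points passed edgeR's test at an adjusted p under 0.05, and they are Zfp36 at 0.97, Zfp36l1 at -0.57, Cnot3 at -0.32 and Cnot9 at -0.61.

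Of 9 genes for the PAN2-PAN3 deadenylase, poly(A)-binding proteins and other enzymes of the poly(A) tail, 0 were higher and 1 lower. That was Pabpn1, which encodes the nuclear poly(A)-binding protein, at 33.0 to 38.8 CPM in hypoxia and 42.3 to 55.0 CPM in normoxia (log2 -0.49 ± 0.09, SE; edgeR adjusted p = 0.0293). The cytoplasmic Pabpc1, a partner of TOB proteins, had a log2 fold change of -0.07 (adjusted p = 0.754). Of 18 decapping and 5′-to-3′ decay genes and 14 tested exosome genes, 0 were called by edgeR. At an unadjusted p under 0.05 there were 3 in each list, against 3291 of all 17047 genes tested. The smallest p in each was that of Patl1 (log2 -0.18, adjusted p = 0.14) and Exosc8 (log2 -0.24, adjusted p = 0.167). Their list medians were -0.03 and -0.04.

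Of 25 genes for other RNA-binding regulators of decay, including the Elavl, Pumilio, roquin, CPEB and GW182 families, 1 was higher and 0 lower, with a median of -0.03. It was Cpeb3, whose product binds TOB1, at 104 to 113 CPM in hypoxia and 90.5 to 97.6 CPM in normoxia (log2 0.21 ± 0.04, SE; edgeR adjusted p = 0.0497). It was called in 2 of 8 fits with 1 library left out, and Pabpn1 in 3. Among 17 genes for the p38-MK2 kinase route, phosphatases, 14-3-3 proteins and other modifiers of these factors, 0 were called by edgeR. Here 3 had an unadjusted p under 0.05, against 3291 of all 17047 genes tested. The smallest p was that of Map2k3, an upstream kinase of p38 (log2 -0.34, adjusted p = 0.122). Across these lists and the 3 further family genes together, 4 of 95 genes tested were called, where 2.15% of all genes were called. Without normoxia replicate 2 and hypoxia replicate 4 the number was 9, where 6.98% of all genes were called.

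The mRNAs that ZFP36 proteins are known to bind went both ways. Of 34 listed, 25 were tested, of which 4 were higher and 2 lower, with a median log2 fold change of 0.28. Vegfa rose by a log2 of 1.29, Pfkfb3, a glycolytic activator gene, by 0.90, and the kinase gene Pim3 by 0.78. The Notch receptor gene Notch1 had -0.36. The other called genes, named after their values were seen, were Ier3 (1.09) and the cyclin gene Ccnd1 (-0.31). Vegfa and Pfkfb3 were called in 8 of 8 fits with 1 library left out, Pim3, Ier3 and Notch1 in 2 and Ccnd1 in 1. The list had 2 higher and 0 lower when any of 6 libraries was left out, 7 and 1 without hypoxia replicate 4, and 6 and 2 without normoxia replicate 2. Of all genes, 26 to 50 were called in those 6 fits, and 4.01% and 3.91% in the last 2. Some of these genes are also known targets of other hypoxia and stress pathways. The cytokine genes for which tristetraprolin is best known could not be followed. Tnf, Il6, Il10, Il1b, Csf2, Cxcl1, Cxcl2, Ccl2 and Ccl3 were too low to be tested, with Il10 and Csf2 at counts of 0 in all 8 libraries.

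Genes were also divided by the number of TATTTAT heptamers in their longest 3′ UTR, the sites shown above for Zfp36 and Zfp36l1. The median log2 fold change was -0.008 for the 10035 genes with 0 heptamers, -0.015 for 2843 with 1, -0.019 for 1008 with 2 and -0.014 for 621 with 3 or more. Calls were spread in both directions. Of genes with 0 heptamers 0.698% were higher and 1.16% lower, and of those with 3 or more 1.77% (11 genes) were higher and 1.93% (12 genes) lower, against 0.869% and 1.33% of all genes with a 3′ UTR. Without normoxia replicate 2 and hypoxia replicate 4 the shares with 3 or more were 2.9% higher and 6.44% lower, against 2.72% and 4.65% of all, so the share higher was then close to that of all genes. Median 3′ UTR length also differed, at 881 bases with 0 heptamers and 3341 with 3 or more, and its part in these shares was not tested.

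Zfp36 and Btg2 are commonly grouped with immediate early genes. Of 28 other such genes tested, 1 was higher and 1 lower, with a median log2 fold change of -0.10. Csrnp1 rose by a log2 of 1.21, and Klf6 fell from 43.5 ± 3.13 to 31.2 ± 2.89 CPM (SD, n = 4 each). Csrnp1 was called in 8 of 8 fits with 1 library left out and Klf6 in 2. Without normoxia replicate 2 the list had 4 higher and 1 lower, where 3.91% of all genes were called. It had 1 and 1 without hypoxia replicate 4, and 1 and 0 when any other library was left out. Fos ran from 13.9 to 33.4 CPM in hypoxia and from 8.58 to 28.9 CPM in normoxia, with overlap. In normoxia replicate 2 Fos was at 28.9 CPM and Zfp36 at 5.96 CPM.

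Among cell type markers, 1 of 8 endothelial genes, Slco1a4, was lower and 1 of 7 mural cell genes, Kcnj8, was higher, each called in 2 of 8 fits with 1 library left out. At an unadjusted p under 0.05 there were 4 endothelial and 2 mural genes, against 3291 of all 17047 genes tested. In 2 endothelial genes all hypoxia libraries were below all normoxia libraries, as in 7.75% of all genes tested. These were Slco1a4 and the tight junction gene Cldn5, named after its values were seen (log2 -0.34, edgeR adjusted p = 0.114). Summed endothelial levels were 265 to 302 CPM in hypoxia and 284 to 341 CPM in normoxia, and mural levels 170 to 218 and 171 to 219 CPM. No marker of the 9 neuron, 7 astrocyte, 6 oligodendrocyte or 7 microglia genes was called by edgeR, where 1, 2, 0 and 0 had an unadjusted p under 0.05. Of the astrocyte genes, 1 lay above and 1 below normoxia without overlap. The part of vascular cells in the levels of Zfp36 and Zfp36l1 was not tested.

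**Figure D4:**
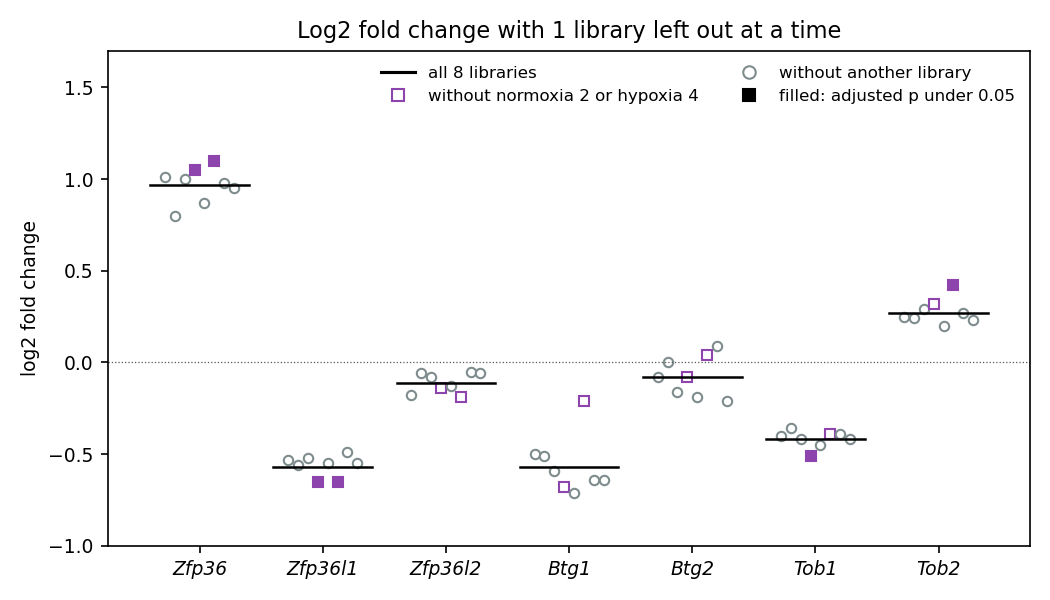
Log2 fold change (vertical axis) of the 7 genes with all 8 libraries (line) and with 1 library left out at a time (points), filled where the adjusted p was under 0.05. Zfp36 stays between 0.80 and 1.10 and Zfp36l1 between -0.65 and -0.49, and the filled points are fits without normoxia replicate 2 or hypoxia replicate 4.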

How the data were processed

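Polyadenylated RNA was sequenced with a stranded kit, per the labels' protocols. The authors deposited raw read counts per Ensembl gene, with 1 column per library, matched here through each sample's description. Trimmomatic, SAMtools, HISAT, HISAT2 2.0.4, DESeq2 and featureCounts are named in the submitters' processing notes, with the build mm10. Annotation release, strand setting and treatment of multi-mapped reads: not given in the sources used here. Therefore values of genes overlapping a gene on the opposite strand are uncertain.

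The test was the quasi-likelihood F test of edgeR 4.0.16 (R 4.3.3) with a single term for group, after TMM scaling. Low genes were removed with filterByExpr (minimum count 10, minimum total 15). SEs were derived from the F statistic, and 95% intervals used the t distribution with residual degrees of freedom of the 8 libraries. Adjusted p-values are Benjamini-Hochberg over all genes tested. The script was tested on simulated data. Ratios used a prior count of 0.5, and correlations a prior count of 2. Symbols, coordinates, lengths and 3′ UTRs came from GENCODE M21 (GRCm38, the assembly of mm10), promoters from RefSeq (GRCm38.p6). Protein sequences were planned but not used here.

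The members, lists and tests were chosen with earlier results of these data known. Genes named are the members and their relatives, from each list up to 4 called genes or else the gene with the smallest p, and the 3 genes most like each member among genes averaging 5 CPM or more. Of these most similar genes, 1 is not reported here. Alternatives were other scalings and filters, DESeq2 1.42.0, limma-voom (limma 3.58.1), other edgeR settings, a replicate block and libraries left out.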

Additional observations from a re-analysis of the deposited data

Results flagged for a closer look

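Btg1 was at 72.5 CPM in normoxia replicate 2, and its gap to the next normoxia library was 0.831 of the group's range, just above Dixon's 95% critical value for 4 libraries. Chance flags about 1 in 20 groups, and 16 groups were checked (8 family genes in both conditions), with 1 flagged. Without that library the log2 fold change of Btg1 was -0.21 in place of -0.57.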

How the results depend on the processing

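Zfp36 stayed positive and Zfp36l1 and Tob1 stayed negative under all alternatives run, including every scaling. With a replicate block Zfp36 had 0.96 (adjusted p = 0.0687) and Zfp36l1 -0.56 (0.136), so neither was called. Deviations of same-numbered libraries from their group means correlated at -0.105 to 0.043, a check that cannot exclude a shared batch. With the block 21 of all genes were called, against 366 without it. The split of all calls was 156 higher and 210 lower, and 146 and 342 with library-size scaling, 159 and 186 with RLE, and 157 and 164 with upper-quartile scaling. Upper-quartile scaling gave -0.55 for Zfp36l1 without a call. Tob1 was called with library-size scaling (-0.44), DESeq2 (-0.41), limma-voom (-0.42) and robust estimation (-0.42). With the other alternatives that kept all 8 libraries, Tob1 was not called (edgeR adjusted p = 0.0501 to 0.151). Without normoxia replicate 2 and hypoxia replicate 4 together, 1195 genes were called, with Zfp36 at 1.18, Zfp36l1 at -0.74, Tob1 at -0.48, Tob2 at 0.46, Btg2 at 0.03 and the log2 ratio of Btg1 to Tob1 differing by 0.16. In Zfp36, Zfp36l1 and Tob2, normoxia replicate 2 and hypoxia replicate 4 were the libraries of their groups nearest to the other group. Leaving both out therefore widens those differences by construction and adds no support for them. DESeq2 called 1017 genes. With 1 library left out, the calls over all genes ran from 26 to 693. The log2 fold change ran from 0.80 to 1.10 for Zfp36, -0.65 to -0.49 for Zfp36l1, -0.51 to -0.36 for Tob1, 0.20 to 0.42 for Tob2 and -0.21 to 0.09 for Btg2, which changed sign. The ratio of Btg1 to Tob1 differed by -0.19 to 0.18. Called genes of the decay machinery, regulators and further family genes numbered 4 with all libraries, 0 to 5 with 1 library left out, 9 without the pair, 2 without the low-count filter and 0 with the block. The cause of these changes was not tested.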
